A study of Homo sapiens with 6 samples.

Results

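The Krüppel-like factors (KLFs) examined here were 10 genes chosen by symbol, KLF2, KLF3, KLF4, KLF5, KLF6, KLF7, KLF9, KLF10, KLF11 and KLF13, of 29982 gene symbols in the deposited expression table. All 10 were in the table, and all 10 had a mean of at least 1 FPKM over the 6 libraries, as did 13287 symbols in all. FPKM, the deposited unit, is a fragment count relative to the length of the transcript and to the size of the library, so that levels of different genes can be set side by side. SpiD7 is a compound that carries more than one cysteine-reactive group, and the study used RNA-Seq to ask whether it activates the unfolded protein response. The cells were OVCAR5, an established ovarian cancer line, grown in high-glucose DMEM with serum. The libraries comprised 2 of cells given the vehicle DMSO, whose duration is not given in the labels, 2 of cells given SpiD7 at 10 μM for 2 h, and single libraries of cells given that dose for 6 h and for 12 h. Nothing in the labels says whether libraries of a group came from separate cultures, so that the spread between them may be technical.

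KLF proteins bind GC-rich and CACCC-type DNA through 3 zinc fingers at their C terminus and differ in the regions before the fingers, through which they recruit co-activators or co-repressors. KLF2, KLF4, KLF5, KLF6 and KLF7 belong to the group that mostly activates and binds acetyltransferases, KLF3 recruits the co-repressor CtBP, and KLF9, KLF10, KLF11 and KLF13 carry a motif that binds the SIN3A repressor complex. Several of them are rapidly transcribed after serum, growth factors or stress, and in epithelium they act in proliferation, differentiation and cell cycle exit.

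The deposited columns that bear the number 2 for DMSO and 2 h held means of both libraries of the group, as judged from their values. Replicate 2 of both groups was recovered from them and is called the recovered library throughout. Its values rest on that reading. The recovered DMSO library stood apart from the first. The summed level of 16 immediate-early genes was 427 FPKM in the first DMSO library, 3339 in the recovered one and, with SpiD7, 1590.0 and 1902 (2 h), 1457 (6 h) and 1337 (12 h), and 15 of the 16, all but FOSL1, were more than 2-fold higher in recovered than in first DMSO. FOSB, a partner of JUN in the AP-1 factor, was at 0.127 and 156 FPKM in the DMSO libraries and, with SpiD7, at 55.7 and 142 (2 h), 55.5 (6 h) and 40.7 (12 h). EGR2, a zinc finger factor induced by growth factors, was at 0.105 and 82.7, 15.1 and 36.2, 5.65 and 2.28 FPKM in the same order. Of the 8 epithelial markers, EPCAM lay between 77.4 and 86.5 FPKM and KRT7 between 209 and 491, with 491 at 12 h, while CDH1 was lower, at 10.4 to 19.3 FPKM, and MUC1 ran from 3.15 FPKM in first to 21.9 in recovered DMSO. Of the ovarian and Müllerian markers, SOX17 was listed at 0 in every library, WT1 reached at most 0.141 and MUC16 at most 0.686 FPKM, PAX8 lay between 1.64 and 2.12 and MSLN between 2.95 and 3.59 FPKM, and FOLR1 was at 3.30 and 10.8 FPKM in the DMSO libraries. The fibroblast markers LUM and COL1A1 reached at most 4.27 and 2.18 FPKM, and the other 5 fibroblast markers at most 0.524. The endothelial marker PECAM1 was at 0.736 and 10.7 FPKM in the DMSO libraries and, with SpiD7, at 0.961 and 7.74 (2 h), 0.320 (6 h) and 0.942 (12 h), but the other 4 endothelial markers stayed at or below 0.725 FPKM. Of the leukocyte markers, CD3E was listed at 0 in every library and PTPRC reached at most 0.0317 FPKM, while the myeloid genes CD68, CD14 and LYZ lay at 22.7 to 37.3, 3.10 to 9.36 and 0.961 to 3.70 FPKM, with log2 differences from DMSO at 12 h of -0.18, 1.04 and 1.40. The part of these markers in the KLF values was not tested. In such bulk libraries fewer cells that express a gene and less RNA of it per cell cannot be told apart.

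Promoter sequence was read since the libraries measure RNA and these bases lie next to where it starts. Stretches are shown for KLF4, KLF5 and KLF11, above both DMSO libraries at 6 h and 12 h, and for KLF2, which lay between them. KLF7, whose groups did not overlap at 2 h, had windows that are not shown. RefSeq windows (GRCh38.p14) of 250 bases before an annotated start were at hand for 8 of the 10 members, in 13 windows, and were searched on both strands. KLF3 and KLF10 had none in the table used. KLF5 had a second window, chr13:73058755-73059004, which is not shown, with 213 of its 250 bases in exons of the gene. It had 70.8% GC and held GC boxes, while the KLF5 window shown had 40.8% GC and no GC box. The stretches shown lie outside the exons that GENCODE release 29 gives the gene and are written 5′ to 3′ on the strand of the gene. Capitals mark a match to the MEF2 site, to the cAMP response element TGACGTCA or to the CACCC box.
KLF11, 204 bases, chr2:10043971-10044174, plus strand, in an intron of a longer KLF11 transcript: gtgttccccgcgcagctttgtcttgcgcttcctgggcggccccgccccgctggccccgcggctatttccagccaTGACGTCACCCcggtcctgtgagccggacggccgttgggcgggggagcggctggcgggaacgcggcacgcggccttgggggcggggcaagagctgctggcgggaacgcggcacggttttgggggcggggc
KLF4, 250 bases, chr9:107489770-107490019, minus strand, in an intron of a longer KLF4 transcript: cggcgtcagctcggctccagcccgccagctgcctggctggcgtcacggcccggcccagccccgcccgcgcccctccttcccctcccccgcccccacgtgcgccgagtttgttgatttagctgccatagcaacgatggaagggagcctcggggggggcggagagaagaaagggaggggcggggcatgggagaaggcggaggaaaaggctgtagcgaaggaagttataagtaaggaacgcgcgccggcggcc
KLF5, 250 bases, chr13:73054726-73054975, plus strand, upstream of the gene: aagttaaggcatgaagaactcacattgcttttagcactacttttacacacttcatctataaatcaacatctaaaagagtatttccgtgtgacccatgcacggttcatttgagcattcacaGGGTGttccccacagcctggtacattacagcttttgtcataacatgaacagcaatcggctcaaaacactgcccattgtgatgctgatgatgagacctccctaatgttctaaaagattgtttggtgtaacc
KLF2, 241 bases, chr19:16324576-16324816, plus strand, upstream of the gene: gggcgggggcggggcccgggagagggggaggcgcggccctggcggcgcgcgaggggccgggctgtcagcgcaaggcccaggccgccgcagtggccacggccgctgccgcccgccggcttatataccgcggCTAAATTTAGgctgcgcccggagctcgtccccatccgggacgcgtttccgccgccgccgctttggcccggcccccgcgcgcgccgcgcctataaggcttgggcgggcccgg

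The windows differed widely in base composition, from 32.4% to 80.0% GC against a median of 58.0% over 35116 windows of the same length. The cAMP response element, TGACGTCA, which binds CREB and ATF factors, was found in 1.65% of all windows and among the members in KLF11 alone (positions -176 to -169 from the second of its starts), where it overlaps a CACCC box by 2 bases. The MEF2 site, the binding site of the factors downstream of the kinase ERK5, was found in 2.80% of all windows and among the members in KLF2 alone (positions -120 to -111). The heat shock element unit GAANNTTC, bound by HSF1, was found in 5.78% of all windows and in 1 member, KLF7, as was the CArG box of the serum response factor, found in 1.16% of all windows. No member window held the C/EBP-ATF element TGATGNAA, present in 3.14% of all windows, or the AP-1 site TGANTCA, present in 6.57%. The TATA box TATAAA was in 10.7% of all windows and in 1 member, KLF5 (positions -194 to -189 of the window shown). The GC box GGGCGG, a site that SP and KLF proteins can share, was in 42.6% of all windows and in 8 of the 13 member windows, the CACCC box in 54.7% and in 6 of 13, and the CCAAT box in 32.0% and in 6 of 13. A match is a string of letters and does not show that a factor binds there.

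KLF11, which recruits SIN3A and was described as a TGF-β-inducible repressor, was the member that stood farthest above DMSO. Its gene spans chr2:10042849-10054836 on the plus strand (GENCODE release 29, GRCh38). KLF11 was at 1.71 FPKM in the first DMSO library, 0.826 in the recovered one and, with SpiD7, at 2.63 and 1.60 (2 h), 15.6 (6 h) and 12.1 (12 h). The 6 h and 12 h libraries lay above all others, while the 2 h libraries overlapped the DMSO libraries. KLF11 was therefore 9.15-fold above the first and 18.9-fold above the recovered DMSO library at 6 h, and 7.09-fold and 14.7-fold above them at 12 h. On the log2(FPKM + 0.1) scale, which is used for all log2 differences here and understates the change of low genes, it differed from the mean of both DMSO libraries by 3.60 at 6 h and 3.24 at 12 h. There was 1 library at each of these times, and no test was made. KLF11 was the only member more than 2-fold above each DMSO library at both times, as were 2.30% of all genes kept (305 genes), and no member was more than 2-fold below each (0.166% of genes). It was also the only member whose recovered DMSO value was below the first (log2 difference -0.97). At 2 h its log2 difference was 0.73 ± 0.47 (SE, n = 2 libraries per group), with a 95% interval of -0.66 to 2.13.

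**Figure D1:**
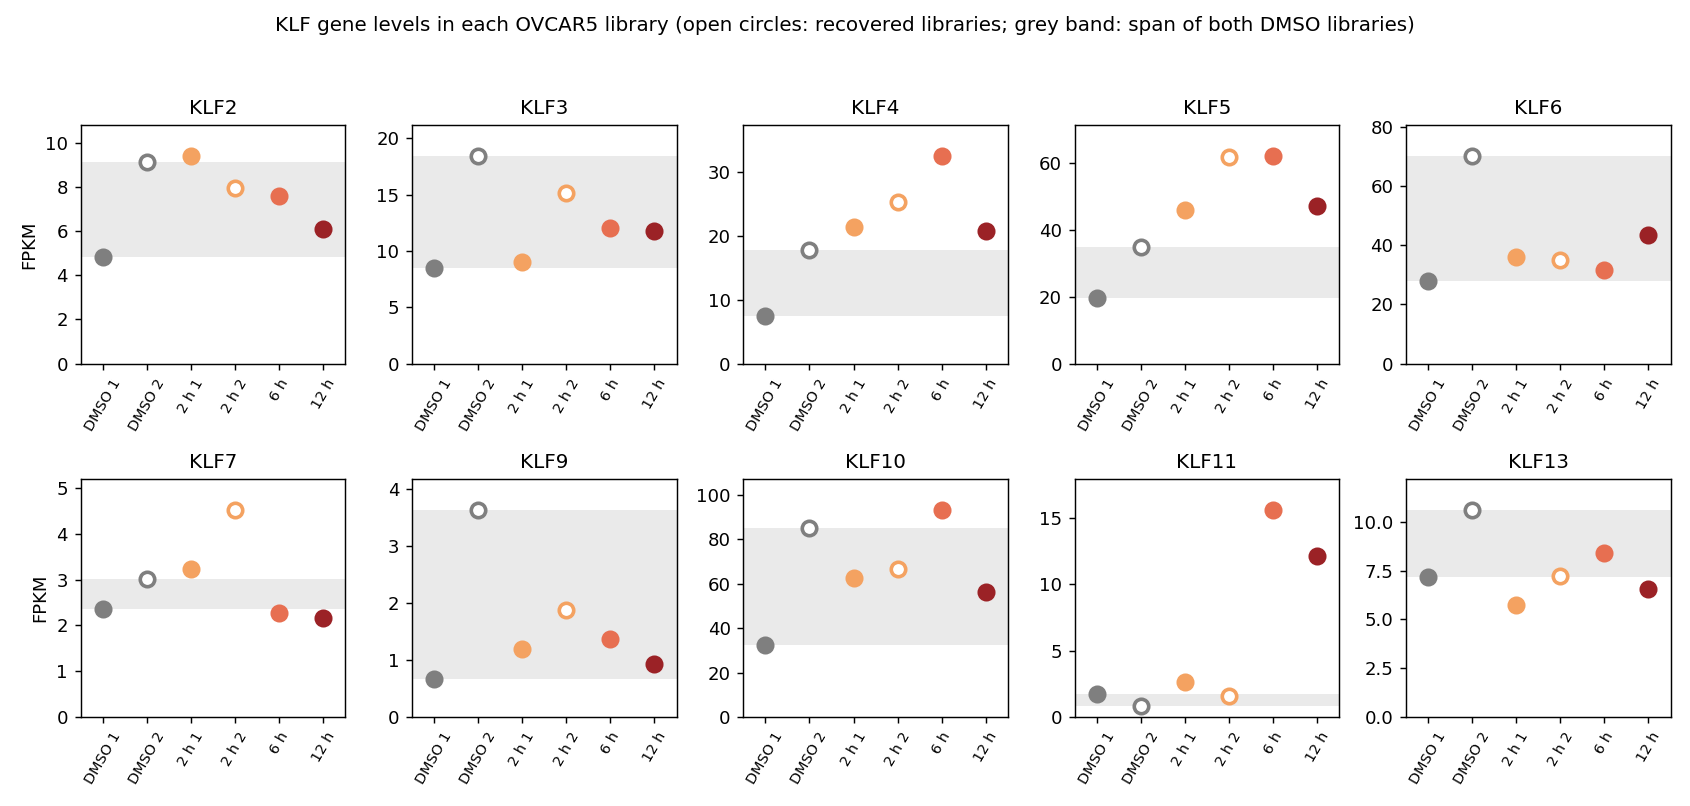
Level of each KLF gene (FPKM, linear axis from 0, one panel per gene) in the 6 OVCAR5 libraries, 1 point per library, with recovered libraries as open circles and the span of both DMSO libraries as a grey band. KLF4 and KLF5 lie above the band in all 4 SpiD7 libraries, and KLF11 rises from at most 2.63 FPKM at 2 h to 15.6 at 6 h and 12.1 at 12 h.

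KLF4 and KLF5 were above both DMSO libraries in all 4 SpiD7 libraries. Of all genes kept, 13.7% had both 2 h libraries above both DMSO libraries. The single later library was above both for 31.6% at 6 h and 30.1% at 12 h. The share of genes with all 4 above was not counted. KLF4, a factor of differentiation and cell cycle arrest and one of the reprogramming factors (chr9:107484852-107490482, minus strand), was at 7.41 and 17.8 FPKM in DMSO and, with SpiD7, at 21.4 and 25.3 (2 h), 32.4 (6 h) and 20.7 (12 h). The 12 h library was 1.16-fold above the recovered DMSO library and 2.80-fold above the first. KLF5, a proliferative factor of epithelium (chr13:73054976-73077542, plus strand), was at 19.5 and 34.8 FPKM in DMSO and, with SpiD7, at 46.0 and 61.8 (2 h), 62.0 (6 h) and 47.2 (12 h). Its lowest SpiD7 library thus lay at 46.0 FPKM and its highest DMSO library at 34.8. For both genes the groups did not overlap at 2 h, also with every other scaling, pseudocount and weight tried. The log2 difference at 2 h was 1.01 ± 0.51 for KLF4 (95% interval -0.49 to 2.51) and 1.03 ± 0.39 for KLF5 (-0.11 to 2.17), and both had an adjusted p of 1.0 by limma. Against the mean of both DMSO libraries the log2 difference of KLF4 was 1.49 at 6 h and 0.85 at 12 h, and that of KLF5 was 1.25 and 0.85. The size depended on the DMSO library. At 6 h KLF4 was 4.38-fold above the first and 1.82-fold above the recovered one, and KLF5 was 3.18-fold and 1.78-fold above them.

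KLF7, a factor of neuronal growth and metabolism (chr2:207074137-207167267, minus strand), was the third member whose groups did not overlap at 2 h. It was at 2.35 and 3.02 FPKM in DMSO and, with SpiD7, at 3.24 and 4.52 (2 h), 2.27 (6 h) and 2.16 (12 h). Both 2 h libraries were above both DMSO libraries, and the later ones were below both, although the 6 h library was at 0.969 times the first DMSO library. With a weight of 0.5 for the recovered libraries, or with upper-quartile scaling, the 2 h and DMSO libraries of KLF7 overlapped. The log2 difference was 0.51 ± 0.27 at 2 h (95% interval -0.29 to 1.30), -0.22 at 6 h and -0.29 at 12 h.

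KLF10, the TGF-β-inducible early gene (chr8:102648779-102655902, minus strand), was at 32.2 and 84.9 FPKM in DMSO and, with SpiD7, at 62.7 and 66.4 (2 h), 93.1 (6 h) and 56.4 (12 h). The 2 h and 12 h libraries lay between the DMSO libraries, and the 6 h library was 2.89-fold above the first and 1.10-fold above the recovered one. At 2 h the log2 difference was 0.30 ± 0.55 (95% interval -1.32 to 1.93).

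KLF6, an early-response factor with a role in growth arrest (chr10:3775996-3785281, minus strand), was at 27.9 and 70.1 FPKM in DMSO and, with SpiD7, at 35.9 and 34.9 (2 h), 31.6 (6 h) and 43.5 (12 h). All its SpiD7 libraries lay between the DMSO libraries. KLF9, which responds to glucocorticoid (chr9:70384597-70414624, minus strand), was at 0.665 and 3.63 FPKM in DMSO and, with SpiD7, at 1.19 and 1.88 (2 h), 1.37 (6 h) and 0.934 (12 h). Here too every SpiD7 library lay between the DMSO libraries, whose 5.47-fold difference was the widest of the members. The 95% interval of the log2 difference at 2 h, -2.77 to 2.61, was correspondingly wide.

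KLF2, known from endothelium and quiescent T cells (chr19:16324817-16327874, plus strand), was at 4.83 and 9.17 FPKM in DMSO and, with SpiD7, at 9.41 and 7.97 (2 h), 7.63 (6 h) and 6.09 (12 h). KLF3, the CtBP-binding repressor (chr4:38664196-38701042, plus strand), was at 8.49 and 18.4 FPKM in DMSO and, with SpiD7, at 9.02 and 15.1 (2 h), 12.0 (6 h) and 11.8 (12 h). Both overlapped DMSO at 2 h and lay between the DMSO libraries at 6 h and 12 h. KLF13, a repressor of the SIN3A-binding group (chr15:31326855-31435665, plus strand), was at 7.15 and 10.6 FPKM in DMSO and, with SpiD7, at 5.75 and 7.23 (2 h), 8.41 (6 h) and 6.54 (12 h). Its 12 h library was below both DMSO libraries, with a log2 difference of -0.13 from the first and -0.69 from the recovered one. At 2 h the 95% intervals of these 3 genes were -0.77 to 1.52 for KLF2, -1.65 to 1.45 for KLF3 and -1.28 to 0.43 for KLF13.

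At 2 h, the one time with replicates, limma called 0 of the 10 members at an adjusted p under 0.05. It called 0.0226% of all genes, or 3 genes, and at an unadjusted p under 0.05 it gave 378 genes and 0 members. An exact permutation test of 2 against 2 libraries cannot go below a two-sided p of 0.333. Both 2 h libraries were above both DMSO libraries for 3 members (KLF4, KLF5 and KLF7), as for 13.7% of all genes, and below both for 0 members, as for 8.10%. The log2 difference was more than 2-fold higher for 2 members, KLF4 and KLF5 (2.32% of genes), and more than 2-fold lower for 0 (0.662%). KLF4 and KLF5 were close to this limit, and with median-ratio scaling their log2 differences of 0.97 and 0.99 no longer passed it. Without the first DMSO library they were 0.38 and 0.62. The median log2 difference of the members was 0.34 and that of all genes -0.01.

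At 6 h, 4 members, KLF4, KLF5, KLF10 and KLF11, were above both DMSO libraries, as were 31.6% of all genes, and 1, KLF7, was below both, as were 29.2%. More than 2-fold above the DMSO mean were 3 members, KLF4, KLF5 and KLF11 (5.66% of genes), and 0 were more than 2-fold below it (3.10%). The 6 h library was the highest of the 6 for KLF4, KLF5, KLF10 and KLF11, and for 12.4% of all genes. At 12 h, 3 members, KLF4, KLF5 and KLF11, were above both DMSO libraries (30.1% of genes) and 2, KLF7 and KLF13, were below both (35.6%). Only KLF11 was more than 2-fold above the DMSO mean (6.48%), and 0 were more than 2-fold below it (3.76%). The median of the members was 0.07 at 6 h and -0.06 at 12 h, against 0.03 and -0.05 for all genes. From 6 h to 12 h, 9 of the 10 members were lower, all but KLF6, as were 56.7% of all genes, but these are single libraries. The changes ranged from 0.606 times the 6 h level for KLF10 to 1.38 times for KLF6.

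**Figure D2:**
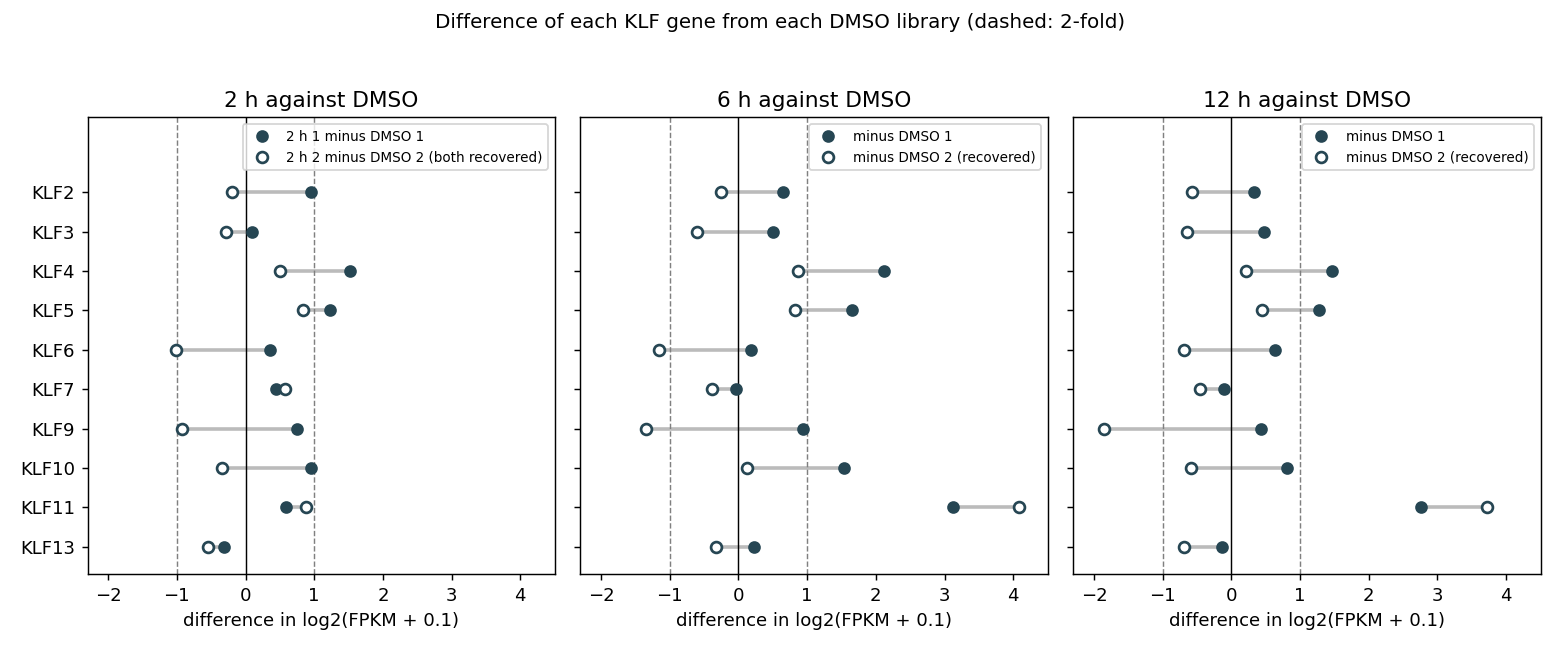
Difference in log2(FPKM + 0.1) of each KLF gene between SpiD7 and DMSO libraries at 2 h (libraries of the same number set against each other), 6 h and 12 h (the single library against each DMSO library), with filled circles against the first and open circles against the recovered DMSO library. Both points of KLF4, KLF5 and KLF11 are right of 0 in all 3 panels, while those of KLF2, KLF3, KLF6 and KLF9 lie on opposite sides of 0. The 2 h panel does not set each 2 h library against both DMSO libraries. KLF11 in the recovered 2 h library was at 0.936 times the first DMSO library.

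For KLF2, KLF3, KLF6 and KLF9 the direction at 6 h and 12 h turned on which DMSO library was used, as it did for KLF10 at 12 h and KLF13 at 6 h. Of the 10 members, 9 were higher in recovered than first DMSO, as were 45.0% of all genes. More than 2-fold higher were 5 members, KLF3, KLF4, KLF6, KLF9 and KLF10 (8.72% of genes), and 0 were more than 2-fold lower (4.77%). KLF6 was 2.51-fold, KLF10 2.64-fold and KLF3 2.17-fold higher. The immediate-early genes named above moved the same way and much farther, with a median log2 difference between the DMSO libraries of 4.76 against 1.01 for the KLF members and -0.06 for all genes. The part of that difference in the KLF values was not tested. Against the first DMSO library 9 members were higher at 6 h and 8 at 12 h, but against the recovered one 4 and 3. The shares of all genes were not counted for these comparisons. More than 2-fold above the first DMSO library at 6 h were 4 members (6.28% of genes) and at 12 h 3 (8.21%). Against the recovered library it was 1 at each time, KLF11 (7.76% and 7.01%), and more than 2-fold below it were KLF6 and KLF9 at 6 h (7.77%) and KLF9 at 12 h (7.56%). At 2 h, 9 members were higher in the first pair of libraries and 4 in the recovered pair, again without a count over all genes. Of 13287 genes kept, 1011 differed more than 2-fold between libraries 1 and 2, in the same direction, in both DMSO and 2 h. Of the KLF members 0 were among them, which with 10 members says little. Of these 1011 genes, 89.2% at 6 h and 61.9% at 12 h lay nearer the libraries numbered 1. The part of this in the KLF values was not tested.

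**Figure D3:**
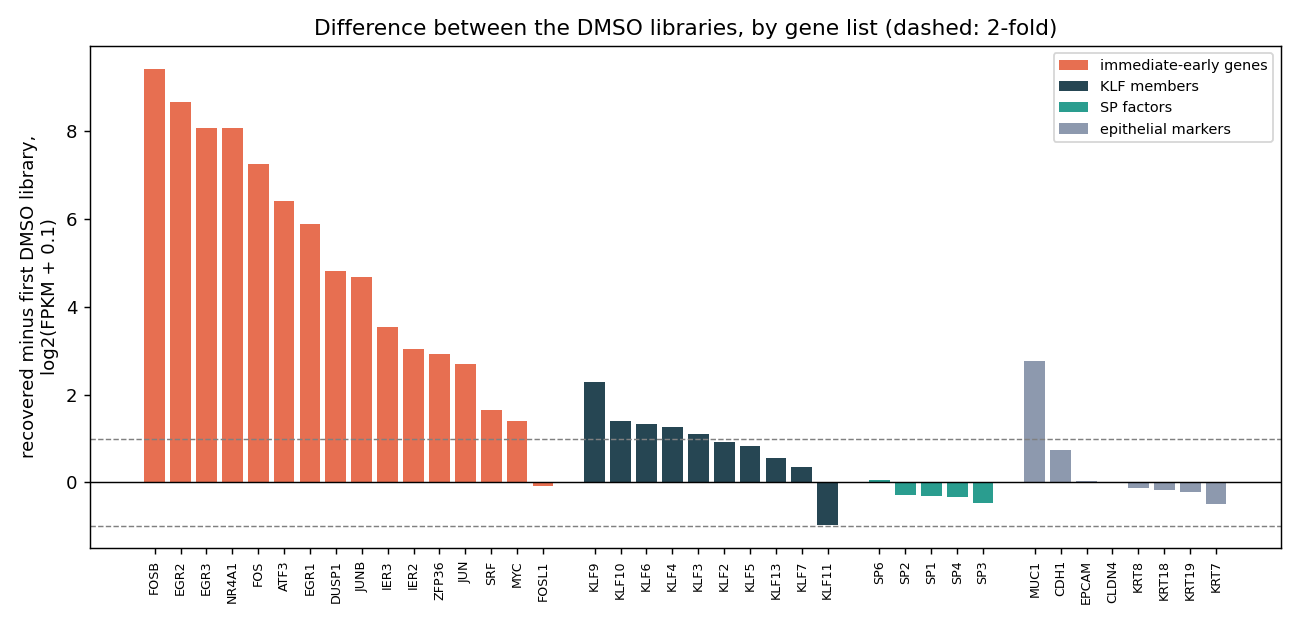
Recovered minus first DMSO library in log2(FPKM + 0.1), 1 bar per gene, for immediate-early genes, the KLF members, SP factors and epithelial markers that were kept, with dashed lines at 2-fold. FOSB and EGR2 are the highest bars, 9 of 10 KLF genes are above 0 with KLF11 at -0.97, and SP factors stay near or below 0.

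The summed level of the 10 members was 112 and 253 FPKM in the DMSO libraries and, with SpiD7, at 197 and 227 (2 h), 267 (6 h) and 207 (12 h). All SpiD7 libraries but that at 6 h thus lay between the DMSO libraries. KLF10 was the highest member in every library, with 27.2% to 34.9% of the sum. KLF5, KLF6 and KLF10 together held 70.1% to 74.9%. In both DMSO libraries the order from the top was KLF10, KLF6, KLF5, and in all 4 SpiD7 libraries KLF5 was second. In DMSO the ranges of these 3 genes over the libraries overlapped, so that their order is not larger than the spread. Within each DMSO library KLF6 was nonetheless above KLF5. At 2 h KLF5 was above KLF6 in both libraries, and their ranges (46.0 and 61.8 against 35.9 and 34.9 FPKM) did not overlap. KLF11 was among the lowest 2 members in both DMSO and both 2 h libraries and the fifth at 6 h and 12 h. Its share of the sum was 1.52% and 0.326% in DMSO. With SpiD7 it was 1.33% and 0.705% (2 h), 5.87% (6 h) and 5.84% (12 h).

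**Figure D4:**
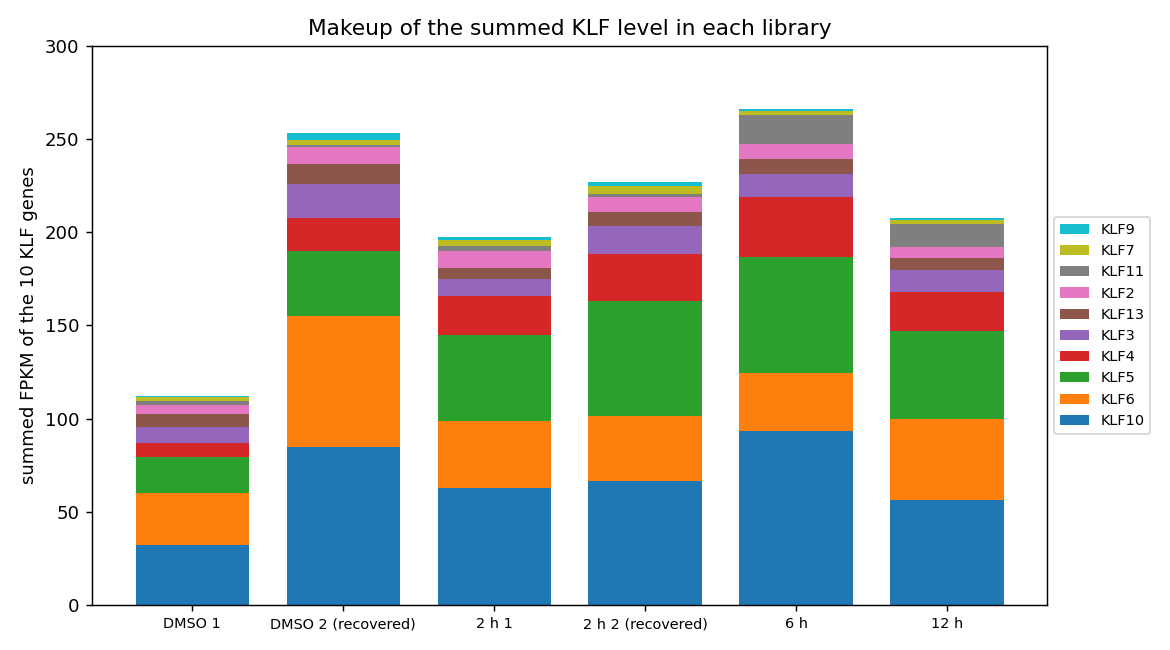
Summed FPKM of the 10 KLF genes in each library, stacked by gene, from KLF10 at the bottom to KLF9 at the top. KLF10, KLF6 and KLF5 make up 70.1% to 74.9% of every bar, and KLF11 (grey) is wide only at 6 h (5.87%) and 12 h (5.84%).

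Among the 8 other KLF genes listed, 7 were in the table and 3 were kept, KLF12, KLF15 and KLF16. KLF16 was at 22.2 and 13.8 FPKM in DMSO and, with SpiD7, at 19.6 and 11.7 (2 h), 22.1 (6 h) and 21.3 (12 h), and KLF12, a CtBP-binding repressor, lay between 1.23 and 1.77 FPKM throughout. KLF15, a metabolic regulator named here after its values were seen, was at 2.40 and 2.67 FPKM in DMSO and, with SpiD7, at 4.70 and 4.95 (2 h), 3.84 (6 h) and 2.39 (12 h). Its 2 h libraries were close together and above both DMSO libraries, with a log2 difference of 0.90 ± 0.16 and an adjusted p of 1.0 by limma. Of the SP factors, relatives that bind the same GC box, 5 of 9 were kept. At 12 h 1 of the 5 was above and 3 were below both DMSO libraries (30.1% and 35.6% of all genes), and the median log2 difference was -0.52 against -0.05 for all genes. SP1, the ubiquitous member, was at 14.9 and 12.1 FPKM in DMSO and, with SpiD7, at 12.9 and 10.8 (2 h), 9.75 (6 h) and 7.80 (12 h), below both DMSO libraries from 6 h on. SP6, an epithelial member, was at 2.33 and 2.43, 3.18 and 3.42, 4.07 and 4.26 FPKM in the same order, above both in all SpiD7 libraries.

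All 12 co-factors of KLF proteins were kept. Of these, 0 were more than 2-fold from the DMSO mean at any time, and at 12 h 1 was above and 7 were below both DMSO libraries, beside 30.1% and 35.6% of all genes. The ends of the list at 12 h were SIN3B, a scaffold of the SIN3 complex, at 11.8 FPKM against 8.18 and 8.14 in DMSO, and NCOR1, a nuclear co-repressor, at 10.8 against 14.1 and 15.3. Of 8 genes for ubiquitination and turnover of KLF proteins, all kept, 1 was more than 2-fold above the DMSO mean at 6 h (5.66% of all genes), FBXO32, with a log2 difference of 1.02. It was named after its values were seen. FBXW7, the substrate receptor of a ubiquitin ligase that acts on KLF5, was at 7.14 and 5.85 FPKM in DMSO and, with SpiD7, at 9.36 and 10.9 (2 h), 9.57 (6 h) and 11.9 (12 h), above both DMSO libraries throughout. WWP1, another ligase for KLF5, was at 14.9 and 20.0 FPKM in DMSO and 14.2 at 12 h.

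Of 14 genes of the ERK5, MEF2 and serum response factor routes, 13 were kept. At 6 h 1 was above and 7 were below both DMSO libraries, beside 31.6% and 29.2% of all genes, and at 12 h 2 were above and 6 below, beside 30.1% and 35.6%. MKL2, a co-activator of serum response factor, was at 8.16 and 7.07 FPKM in DMSO and, with SpiD7, at 7.10 and 6.07 (2 h), 3.68 (6 h) and 3.11 (12 h). It was the one gene of the list more than 2-fold from the DMSO mean at 6 h and 12 h. Of all genes, 5.66% were more than 2-fold above and 3.10% below it at 6 h, and 6.48% and 3.76% at 12 h. MEF2D stood at 3.56 and 7.75 FPKM in DMSO and 7.14 at 12 h, between the DMSO libraries. Of the 13 TGF-β and SMAD genes, all kept, 5 were above and 5 below both DMSO libraries at 6 h, and 5 above and 4 below at 12 h, beside the same shares of all genes. SKIL, a repressor of SMADs, was at 3.15 and 13.6 FPKM in DMSO and, with SpiD7, at 8.62 and 20.3 (2 h), 20.5 (6 h) and 14.6 (12 h). SMAD3, a transducer of the TGF-β signal, was at 34.2 and 50.2, 27.0 and 38.9, 20.2 and 19.4 FPKM in the same order, and its 6 h and 12 h libraries lay below all others. The median log2 difference at 12 h was -0.15 for the first list, 0.05 for the second and -0.05 for all genes.

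Of 24 genes described as KLF targets, 22 were kept. At 6 h 7 were above and 4 below both DMSO libraries (31.6% and 29.2% of all genes), and at 12 h 8 above and 5 below (30.1% and 35.6%). At 12 h 7 were more than 2-fold above the DMSO mean (6.48% of all genes) and 1 was more than 2-fold below it (3.76%), CCNB1, the cyclin of mitotic entry, named after its values were seen. The list had a median log2 difference of 0.01 (2 h), 0.04 (6 h) and 0.43 (12 h), beside -0.01, 0.03 and -0.05 for all genes. CDKN1A and CCNE1 were more than 2-fold above each DMSO library at both 6 h and 12 h (2.30% of all genes). CDKN1A, the cyclin-dependent kinase inhibitor p21, was at 2.71 and 11.1 FPKM in DMSO and, with SpiD7, at 16.7 and 23.1 (2 h), 37.7 (6 h) and 24.1 (12 h). CCNE1, the cyclin of the entry into S phase, was at 9.31 and 7.94 FPKM in DMSO and, with SpiD7, at 11.9 and 10.2 (2 h), 22.9 (6 h) and 22.0 (12 h). Of the 22 kept, 3 were highest of the 6 libraries at 6 h, CDKN1A and CCNE1 among them, beside 12.4% of all genes. Any link of the targets to the KLF levels was not tested.

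Likeness of pattern was measured as the Pearson correlation of log2(FPKM + 0.1) over the 6 libraries for the 8 members with at least a 2-fold range. The points share DMSO and treated libraries and are few, so that many genes reach a high value, and it is given as a description only. The genes most like KLF11 were TNK2, SLC16A1 and ABHD3 (r = 0.997, 0.995 and 0.995, n = 6 libraries), and 140 genes had r above 0.95. For KLF4 they were LOC102724012, OSER1-AS1 and CDKN1A (0.986, 0.983 and 0.982), and 46 genes were above 0.95. For KLF5 they were PDK4, DDIT3 and LINC01004 (0.997, 0.996 and 0.992), with 76 genes above 0.95. KLF3 was most like ADAMTSL2, NFKBIE and UNC5B (0.993, 0.993 and 0.992), KLF6 like CMTM7, MORN2 and CAPNS1 (0.986, 0.981 and 0.967), and KLF7 like PIGB, GOLGA1 and ZNF589 (0.993, 0.989 and 0.984). KLF9 was most like PDP1, MORN4 and PPP1R15B (0.993, 0.991 and 0.979), and KLF10 like USP6NL-IT1, AKAP12 and LOC102724517 (0.973, 0.968 and 0.967). Between members the highest value was 0.98 for KLF4 and KLF5, followed by 0.90 for KLF3 and KLF9, and the lowest was -0.62 for KLF7 and KLF11.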

How the data were processed

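Total RNA of 6 OVCAR5 samples was sequenced as single reads. Per the methods and processing notes, the authors used Trim Galore for trimming, TopHat 2.0.8 for alignment, and Cufflinks and Cuffdiff 2.1.1 for expression. The methods name the mouse build GRCm38, the notes also hg38, and the loci in the table are of the human genome. The authors deposited FPKM for both sides of 4 comparisons that Cuffdiff scaled separately, with its log2 fold change, p-value and q-value for each, which were not used. No column lacked a sample or group (0 columns). The methods give an approximate number of reads per sample. The table holds no counts, so that the exact depth of each library, counting error and detection limits are unknown.

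The columns named for replicate 2 were read as group means, because 0 of the 18195 rows (DMSO) and 0 of the 18722 rows (2 h) above 0 in the first library were at 0 in them and many rows lay at one lower limit. That limit, 0.5261 of the first library for DMSO (811 rows) and 0.5093 for 2 h (964 rows), was taken as the weight of each library, and replicate 2 was what remained after the first, divided by that weight, a reading that no source describes. A remainder under 0.2% of the mean was set to 0. The 6 h and 12 h libraries were rescaled through the shared first DMSO library (0.9724 and 0.994).

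Rows of a symbol were summed (33085 rows, 1 blank row left out), and genes with a mean of at least 1 FPKM were kept. The 2 h libraries were compared with DMSO on log2(FPKM + 0.1) by limma 3.58.1 in R 4.3.3 with Benjamini-Hochberg adjustment over all genes kept. The fit was also run on simulated data with independent noise and no difference between library numbers. That setting differs from these libraries, so the run does not show how the test performs on them. Single 6 h and 12 h libraries were set against DMSO without a test. Python 3.11.15, pandas 2.3.3 and numpy 2.4.6 were used, with promoter windows from RefSeq (GRCh38.p14) and positions from GENCODE release 29, all of which overlap the deposited loci. The members and lists were chosen with earlier results of these data known. Named were all members, from each list the genes more than 2-fold from both DMSO libraries at 6 h and 12 h or else the ends of the list at 12 h, and for each member with a 2-fold range the 3 genes most correlated with it. Further cell type markers are given beside them. Alternatives were other pseudocounts, filters and scalings, another weight, single rows, an intensity trend, a replicate block and leaving out each library.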

Additional observations from a re-analysis of the deposited data

Results flagged for a closer look

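KLF7 was above both DMSO libraries in both 2 h libraries and below both in the later ones, with a log2 difference from the DMSO mean of -0.22 at 6 h and -0.29 at 12 h. The later libraries lay close to the first DMSO library, at 0.969 (6 h) and 0.921 (12 h) times its level. Of all genes, 13.7% were above both DMSO libraries at 2 h, and 29.2% (6 h) and 35.6% (12 h) below both. The 2 h and later libraries lay on opposite sides of DMSO, but the difference between the times was not tested. At 6 h and 12 h there was 1 library each. The separation at 2 h was lost with a weight of 0.5 and with upper-quartile scaling.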

How the results depend on the processing

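Of 310 alternative values of single members, 302 kept their direction and call or stayed within the spread of the DMSO libraries. At 6 h and 12 h, leaving out a DMSO library moves a value only within that spread, so this count cannot show robustness there. Changes of sign counted as kept include KLF6 at 6 h (-0.49 to 0.18) and KLF9 at 12 h (-0.71 to 0.43), both without the recovered DMSO library. Another is KLF10 at 12 h (0.11 to -0.59), without the first. The exceptions were KLF11 at 6 h, 2.90 with a pseudocount of 1, and 7 reversals at 2 h on leaving out a library. Over those fits the log2 difference ran from -0.08 to 0.83 for KLF2, -0.65 to 0.45 for KLF3, -0.98 to 0.34 for KLF6, -1.23 to 1.06 for KLF9 and -0.40 to 1.00 for KLF10, all with an adjusted p of 1.0 by limma. KLF2 and KLF10 reversed without the first DMSO library, KLF3, KLF6 and KLF9 without the recovered one, and KLF3 and KLF9 also without the first 2 h library. The lone library was there assumed to vary like the other group. The count of members more than 2-fold from DMSO at 2 h was 1 with a pseudocount of 1, 0 with median-ratio scaling and 0 with a weight of 0.5, and 1 to 4 on leaving out a library, 4 without the recovered DMSO and 1 without the recovered 2 h library. Without the first DMSO library the 2 members were KLF9 (-1.23) and KLF11 (1.22), not KLF4 and KLF5. Over these fits KLF4 ran from 0.38 to 1.64, KLF5 from 0.62 to 1.45 and KLF11 from 0.25 to 1.22. The count not overlapping at 2 h was 2 with a weight of 0.5, without KLF7, 4 with median-ratio scaling, with KLF13, and 3 with upper-quartile scaling, with KLF11 in place of KLF7. On leaving out a library it ran from 3 to 9, with 9 and 8 without the first and the recovered DMSO library and 6 when recovered 2 h was dropped, and that over 2-fold at 12 h from 2 (without first DMSO) to 3 (without recovered DMSO). Against a single DMSO library all 10 members lay outside it at 6 h and at 12 h, by construction. With a replicate block at 2 h, 0 members and 0 genes passed an adjusted p under 0.05, the lowest adjusted p of a member being 0.329, and 4 members and 1874 genes had an unadjusted p under 0.05. The numbers 1 and 2 share only a label, and the deviations of same-numbered libraries correlated at 0.369 over genes. All members' values rest on 2 libraries per group at most, with the exact depth of each library unknown.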
